A study of Homo sapiens with 18 samples.

Results

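The genes described here are 9 components of the transforming growth factor beta (TGF-beta) pathway in 2 human lung cancer cell lines with knockdown (KD) of PPP2R2A, which encodes the B55-alpha regulatory subunit of PP2A, a serine/threonine phosphatase. They were chosen by symbol, with earlier results of these data known. They comprise the ligands TGFB1 and TGFB2, the latent TGF-beta binding protein LTBP2 and the receptors TGFBR1 and TGFBR2. The others are the signal transducer SMAD3, the inhibitors SMAD7 and SKIL, and the target TGFBI. All 9 were found, each as 1 of the 57773 genes in the table, and all 9 passed the filter on low counts in both lines. Bulk RNA-Seq was carried out in A549 cells, a lung adenocarcinoma line, and in H1299 cells, a line from a large cell lung carcinoma. Cells of each line carried a control hairpin (shcon) or a hairpin against PPP2R2A (shPPP2R2A-1 or shPPP2R2A-2), giving 6 groups of 3 libraries and 18 libraries in all, and both lines grew in DMEM with serum and no added ligand or drug named in the labels. The study describes pooled KD populations for part of its later experiments, and the labels do not say whether the cells of these libraries were pools or clones. Nor do they say whether the replicates were separate cultures, so the p-values describe only how far these libraries spread, which may be a technical spread.

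TGF-beta ligands are secreted in a latent complex and, once released, bind TGFBR2, which recruits and phosphorylates TGFBR1. The active receptor phosphorylates SMAD2 and SMAD3, which enter the nucleus with SMAD4 and switch on target genes, among them SMAD7 and SKIL, whose products restrain the same pathway. In lung cancer cells the pathway is known for both growth arrest and epithelial-mesenchymal transition, and PP2A subunits of the B family have been described as partners of the type I receptor.

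The libraries held 35743287 to 69298905 counts. In such bulk samples fewer cells of a type and less RNA per cell cannot be told apart. Levels are given in CPM, counts scaled to a common library size, after TMM scaling of all 18 libraries together, and a gene was called when its Benjamini-Hochberg adjusted p in edgeR's quasi-likelihood test, taken over all genes tested, was under 0.05. PPP2R2A was at 73.1 ± 21.1 CPM (SD, n = 3) in A549 shcon cells, with the lowest library, replicate 2, at 48.7 CPM. With shPPP2R2A-1 and shPPP2R2A-2 it fell to 12.7% and 17.9% of shcon in A549 cells and to 9.0% and 19.1% in H1299 cells. CDKN2A, a tumor suppressor gene known to be deleted in A549 cells, had 0 reads in 8 of the 9 A549 libraries and 57 reads (1.23 CPM) in A549 shPPP2R2A-2 replicate 1, against 28.7 to 64.5 CPM in the H1299 libraries. The part of this library in the results was not tested further than by leaving it out, and values without it are given below. All 6 epithelial markers of the list were above 1 CPM in every A549 shcon library (summed level 10933 to 15166 CPM) and 3 of 6 in every H1299 shcon library (477 to 932 CPM). Under shPPP2R2A-1 in A549 the sum was 9850 to 17939 CPM, with 5 of 6 above 1 CPM in every library, and EPCAM, an epithelial adhesion molecule, was at a mean of 2.24 against 6.74 CPM and CDH1, E-cadherin, at 42.2 against 64.7 CPM in shcon. Under shPPP2R2A-2 the sum was 12331 to 25565 CPM, with EPCAM at 4.86 and CDH1 at 91.9 CPM. KRT7, a keratin of the same list, was at means of 2582 CPM in A549 shcon, 5064 CPM under shPPP2R2A-1 and 4106 CPM under shPPP2R2A-2. The A549 means of KRT8, KRT18 and CLDN4 were lower under shPPP2R2A-1 than in shcon. VIM, an intermediate filament of mesenchymal cells, was at 787 to 1439 CPM in A549 shcon, 1455 to 2407 CPM under shPPP2R2A-1 and 936 to 1458 CPM under shPPP2R2A-2, so that the first KD group lay above shcon without overlap. In H1299 it was at 2331 to 3298, 1757 to 2344 and 1792 to 2705 CPM in the same order. CDH2, also a mesenchymal marker, was at 13.3 to 49.5, 24.6 to 51.7 and 56.3 to 61.2 CPM in A549 shcon, shPPP2R2A-1 and shPPP2R2A-2. ZEB1, the last of these markers, went the other way in A549, at means of 17.9, 15.2 and 10.1 CPM in that order. The 7 fibroblast markers summed to 12.9 to 17.3 CPM in A549 shcon, 27.8 to 38.6 CPM under shPPP2R2A-1 and 45.7 to 84.8 CPM under shPPP2R2A-2, most of it THY1, whose means were 10.7, 25.9 and 61.2 CPM. Of the 7, LUM and THY1 were above 1 CPM in every A549 library. LUM, the matrix proteoglycan lumican, was at 2.61 to 4.28 CPM in shcon, 5.13 to 8.54 CPM under shPPP2R2A-1 and 1.82 to 2.75 CPM under shPPP2R2A-2, and PDGFRB, a growth factor receptor, at 0.236 to 0.288, 0.509 to 1.08 and 0.132 to 0.498 CPM. Of the rest, COL1A2 and DCN were at 0 to 1.04 CPM in every A549 library, COL3A1 at 0.348 to 2.15 CPM and PDGFRA at 0.0424 to 0.526 CPM. In H1299 the 7 summed to under 1 CPM in every library. The part of these markers in the members' results was not tested.

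The upstream sequences of TGFB2, SMAD7 and TGFBI are shown because these 3 members were higher with shPPP2R2A-1 than with shcon in every library of both lines. The share of all genes separated in this way is not given, so this only explains the choice of sequences. The sequences are the 250 bases before the RefSeq start on GRCh38.p14, with capitals marking CAGAC, the short element known to be bound by SMAD3, or its reverse complement GTCTG.
TGFB2, chr1:218345086-218345335, plus strand: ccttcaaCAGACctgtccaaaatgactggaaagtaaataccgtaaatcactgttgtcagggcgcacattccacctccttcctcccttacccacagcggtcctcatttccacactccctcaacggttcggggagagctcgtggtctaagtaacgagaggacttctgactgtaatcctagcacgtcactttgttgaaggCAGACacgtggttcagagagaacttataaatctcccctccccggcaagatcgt
SMAD7, the farthest upstream of its starts, chr18:48950966-48951215, minus strand: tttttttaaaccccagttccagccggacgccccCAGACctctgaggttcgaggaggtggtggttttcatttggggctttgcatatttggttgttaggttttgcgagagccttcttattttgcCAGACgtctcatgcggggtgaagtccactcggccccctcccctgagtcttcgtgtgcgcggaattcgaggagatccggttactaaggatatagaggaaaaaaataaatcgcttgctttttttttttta
TGFBI, chr5:136028738-136028987, plus strand: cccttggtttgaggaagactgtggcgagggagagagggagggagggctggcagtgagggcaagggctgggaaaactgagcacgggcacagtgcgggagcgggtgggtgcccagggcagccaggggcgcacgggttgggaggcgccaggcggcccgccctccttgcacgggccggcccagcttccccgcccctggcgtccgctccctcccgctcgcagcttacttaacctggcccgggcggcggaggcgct
In GENCODE v29 on GRCh38, the TGFB2 window lies upstream of the gene, the SMAD7 window lies within the gene, downstream of its first annotated base, and the start of TGFBI falls inside its window. The windows of TGFB2 and SMAD7 each held 2 matches and that of TGFBI held 0. Over all 9 members, RefSeq listed 23 start windows, some of them overlapping, of which 10 held CAGAC and 0 held the palindrome GTCTAGAC. A further pattern, TGANTCA, was held by 1 (of SMAD3). It takes any base at N and so is wider than the AP-1 element. Among all 35116 windows of the same length, searched on both strands, 38.0% held CAGAC, 6.57% TGANTCA and 0.182% GTCTAGAC, and none of these motifs contains another. A match is a description of the letters only.

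The 9 genes were set at different levels in the control cells of the lines. Per kilobase of exon, TGFBI was the most abundant member in A549 shcon cells at 85.0 ± 40.4 CPM per kb (SD, n = 3) and was near the bottom in H1299 shcon cells at 1.28 ± 0.600 CPM per kb. TGFBR2 followed in A549 at 63.0 ± 28.4 CPM per kb, while TGFB1 led in H1299 at 44.0 ± 8.30 CPM per kb. The lowest member was LTBP2 in A549 (2.13 ± 0.947 CPM per kb) and SMAD7 in H1299 (1.08 ± 0.436 CPM per kb). Exon lengths came from GENCODE v29 on GRCh38, while the counts were made on GRCh37 (hg19), so these per-length levels are approximate.

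**Figure D1:**
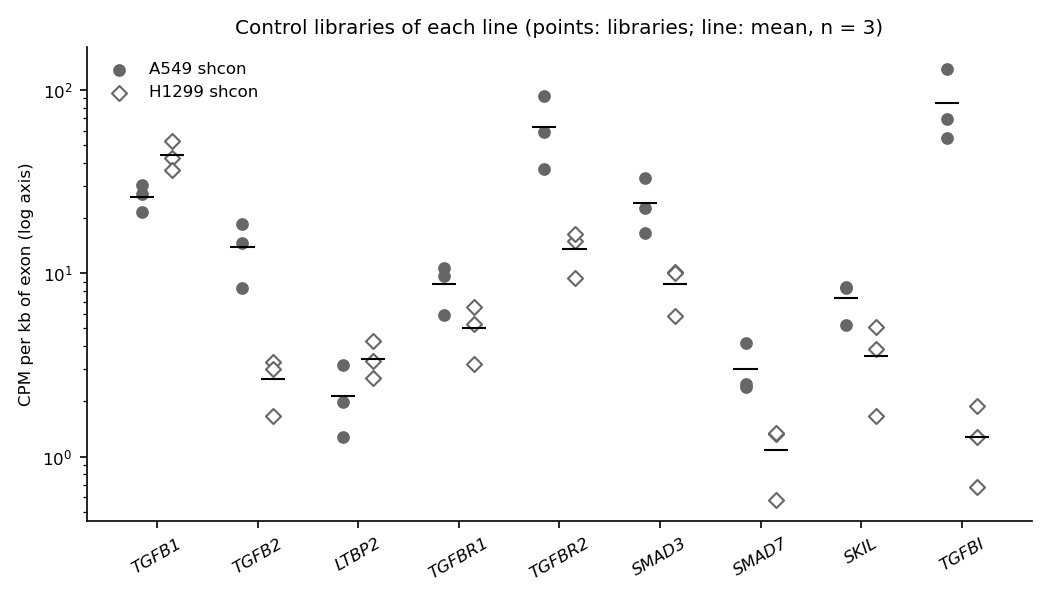
CPM per kb of exon of the 9 genes in the shcon libraries (log axis), with filled circles for A549, open diamonds for H1299 and a line at each mean (n = 3). TGFBI is separated most between the lines, at means of 85.0 and 1.28 CPM per kb.

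Compared with H1299 shcon, A549 shcon cells had 7 of the 9 genes higher and 2 lower, against 56.0% of all 18827 genes called in either direction in the fit of all 18 libraries. TGFBI, an extracellular matrix protein named for its induction by TGF-beta, differed by a log2 fold change of 6.05 ± 0.41 (SE, adjusted p = 7.86e-10), a 66.2-fold higher level in A549. TGFB2 was 5.20-fold higher, TGFBR2 4.64-fold, SMAD3 and SMAD7 2.78-fold and 2.77-fold, and these 5 calls held when any 1 library was left out. SKIL (2.08-fold) and TGFBR1 (1.75-fold) were also called higher, and TGFB1 (log2 fold change -0.75) and LTBP2 (-0.68) lower. Those 4 calls rested on single libraries. Without A549 shcon replicate 1 the adjusted p (edgeR) was 0.0839 for TGFBR1 and 0.0669 for SKIL, without A549 shcon replicate 3 it was 0.0767 for TGFB1, 0.101 for LTBP2 and 0.0578 for SKIL, and without H1299 shcon replicate 1 it was 0.0729 for TGFBR1, 0.0884 for SKIL and 0.0768 for TGFB1. For LTBP2 it was also 0.189 without A549 shcon replicate 2, 0.176 without H1299 shcon replicate 2 and 0.0622 without H1299 shcon replicate 3. The lines come from different tumors, so a difference in pathway activity and any other difference between them cannot be told apart.

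The effect of PPP2R2A KD on these genes was examined within each line. Because the members were chosen with earlier results known, their counts beside the shares of all genes are a description and not independent evidence. With shPPP2R2A-1 in A549, 5 of the 9 genes rose (TGFB2, TGFBR1, SMAD3, SMAD7 and TGFBI, 1.67- to 2.74-fold), where 7.34% of the 17229 genes tested rose. With shPPP2R2A-2, which shares the shcon libraries, 1 of 9 rose (SMAD7, 2.49-fold), where 10.6% of all genes rose. In H1299 cells shPPP2R2A-1 raised 1 of 9 (TGFBI, 2.68-fold), where 0.808% of the 15972 genes tested rose, and shPPP2R2A-2 raised 0 of 9, where 1.37% rose. With the replicate number as a block, shPPP2R2A-1 raised 2 of 9, TGFB2 being the other. No member was called lower in any of the 4 comparisons by edgeR, where 6.34%, 9.94%, 1.93% and 1.72% of all genes fell in the same order. At an unadjusted p under 0.05, edgeR gave 0 lower members in each of the 4, as did DESeq2 at its adjusted threshold. For H1299 shPPP2R2A-2, 1 member was higher at an unadjusted p under 0.05 and DESeq2 called 1. The median log2 fold change of the 9 genes was 0.87 and 0.39 in A549 and 0.20 and 0.20 in H1299 (shPPP2R2A-1 and shPPP2R2A-2), against medians over all genes of -0.02, -0.01, -0.04 and -0.01.

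The count of 5 rested on few libraries. It was 2 without A549 shcon replicate 3, and 3 without A549 shcon replicate 2, A549 shPPP2R2A-1 replicate 2 or A549 shPPP2R2A-1 replicate 3. Without A549 shcon replicate 1 it was 6, and the count with shPPP2R2A-2 became 4. Some libraries stood at 1 end of their group for most members. A549 shcon replicate 1 was the highest of its group for 8 of the 9 genes and A549 shcon replicate 2 the lowest for 8 of 9, and H1299 shcon replicate 1 was the lowest of its group for 8 of 9. Of the KD libraries, A549 shPPP2R2A-1 replicate 1 was the highest of its group for 6, H1299 shPPP2R2A-1 replicate 1 the lowest for 7 and H1299 shPPP2R2A-1 replicate 3 the highest for 7. What set these libraries apart was not tested.

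**Figure D2:**
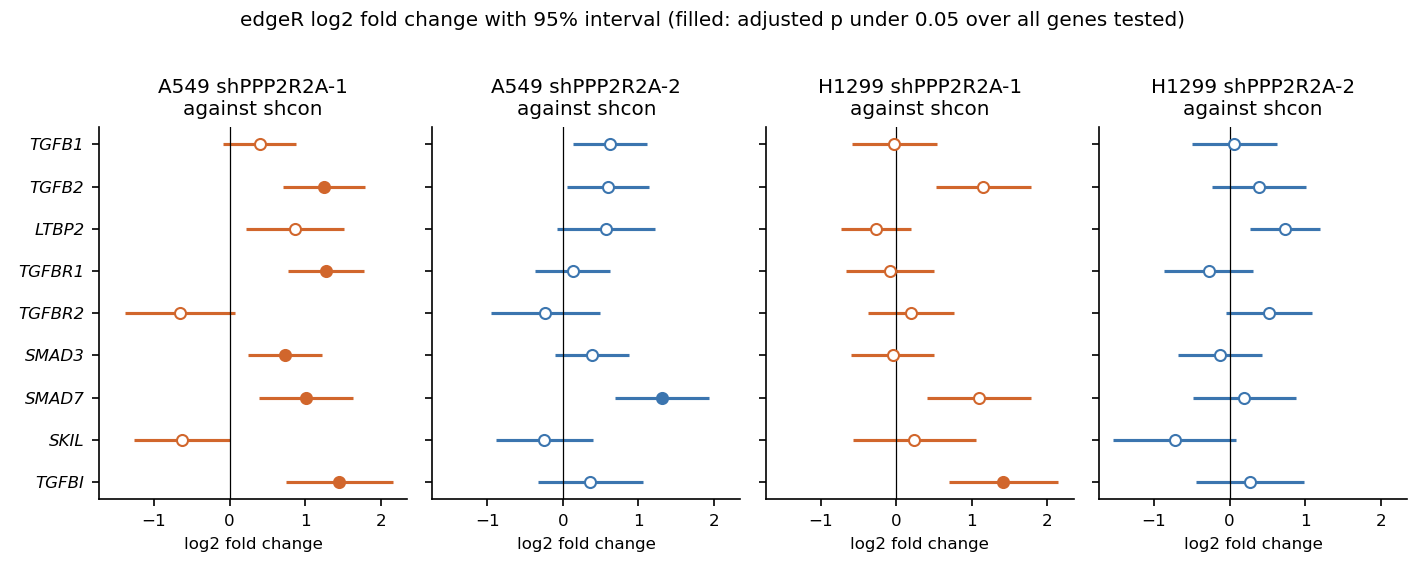
Log2 fold change (edgeR) of each gene against shcon with its 95% interval, in 1 panel per line and hairpin. Filled points are the 7 calls over the 4 panels, 5 of them in A549 shPPP2R2A-1, and TGFBI and TGFB2 have similar positions in both shPPP2R2A-1 panels.

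Among the ligands, TGFB2, a TGF-beta isoform made by many epithelial tumors, was the member whose 6 groups were best separated. The A549 shcon libraries were at 95.4, 42.7 and 75.6 CPM, the shPPP2R2A-1 libraries at 183, 182 and 146 CPM, and the shPPP2R2A-2 libraries at 117, 99.1 and 104 CPM. Neither KD group overlapped with shcon or with the other. For this and the other members, the share of all genes with groups so separated is not given. The H1299 libraries were at 8.53, 17.0 and 15.6 CPM in shcon, 25.2, 32.5 and 37.3 CPM under shPPP2R2A-1, and 16.5, 24.2 and 15.5 CPM under shPPP2R2A-2. Here shPPP2R2A-1 again stood above both other groups, and shPPP2R2A-2 overlapped with shcon. In A549 the log2 fold change was 1.25 ± 0.25 (SE, adjusted p = 0.00995, edgeR) with shPPP2R2A-1 and 0.60 ± 0.25 (adjusted p = 0.11) with shPPP2R2A-2. The former call held when any 1 library was left out (adjusted p 0.00547 to 0.0361), and the latter passed without A549 shcon replicate 1 (adjusted p = 0.0438). In H1299 shPPP2R2A-1 gave 1.16 ± 0.28 and missed the threshold (adjusted p = 0.0588, edgeR), although it was called by DESeq2 (0.00213), in the fit of all 18 libraries (0.0252), with the replicate number as a block (1.19, 0.0426) and without H1299 shPPP2R2A-2 replicate 3 (0.0267). With shPPP2R2A-2 it was 0.39 ± 0.28 (adjusted p = 0.519).

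TGFB1, the most widely expressed TGF-beta isoform, was not called with either hairpin. The A549 libraries were at 98.0, 87.3 and 69.5 CPM in shcon, at 104, 86.9 and 146 CPM under shPPP2R2A-1 and at 127, 112 and 152 CPM under shPPP2R2A-2. The last group was above shcon without overlap and the former overlapped with it. The log2 fold changes were 0.40 ± 0.22 (SE, adjusted p = 0.248, edgeR) and 0.63 ± 0.22 (0.0672), and the latter passed with DESeq2 (0.0463) and without A549 shPPP2R2A-1 replicate 3 (0.0205). In H1299 the means were 142 ± 26.9, 145 ± 9.07 and 156 ± 67.1 CPM (SD, n = 3) in shcon, shPPP2R2A-1 and shPPP2R2A-2, with all groups overlapping and 1 library, shPPP2R2A-2 replicate 3, at 233 CPM. Ordered by mean, every neighbouring pair among the 6 groups overlapped, from H1299 shPPP2R2A-2 down to A549 shcon (84.9 CPM).

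LTBP2, an extracellular matrix protein of the latent TGF-beta binding family that, unlike its relatives, is not known to bind latent TGF-beta itself, was the member in which H1299 shPPP2R2A-2 stood out. H1299 libraries were at 24.3, 39.0 and 30.1 CPM in shcon, 23.0, 30.4 and 27.0 CPM under shPPP2R2A-1, and 60.2, 56.8 and 45.8 CPM under shPPP2R2A-2. All 3 shPPP2R2A-2 libraries were above the other 6, which overlapped. The log2 fold change against shcon was 0.74 ± 0.21 (SE, adjusted p = 0.0920, edgeR), called by DESeq2 (0.0142) and without H1299 shPPP2R2A-2 replicate 3 (0.0329). In A549 the libraries were at 28.6, 11.6 and 18 CPM in shcon, 43.8, 26.1 and 36.8 CPM under shPPP2R2A-1, and 30.3, 29 and 26.4 CPM under shPPP2R2A-2, and both KD groups overlapped with shcon through its replicate 1. The log2 fold changes were 0.87 ± 0.30 (adjusted p = 0.0738, edgeR) and 0.57 ± 0.30 (0.196). Without A549 shcon replicate 1 both passed, at 0.0188 and 0.0444, and DESeq2 called the former (0.0383).

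TGFBR1, the type I receptor kinase, separated the hairpins in A549. Its levels were 73.2, 40.6 and 66.5 CPM in shcon, 172, 116 and 149 CPM under shPPP2R2A-1, and 67.8, 68.0 and 60.0 CPM under shPPP2R2A-2. The shPPP2R2A-1 libraries were all above the other 6, while shPPP2R2A-2 lay within the range of shcon. The log2 fold change was 1.27 ± 0.23 (SE, adjusted p = 0.00649, edgeR) with shPPP2R2A-1, held when any 1 library was left out (0.00717 to 0.0229), and 0.13 ± 0.23 (0.718) with shPPP2R2A-2, whose 95% interval ran from -0.36 to 0.63. In H1299 the means were 34.4 ± 11.6, 33.7 ± 4.36 and 29.5 ± 6.88 CPM (SD, n = 3) in shcon, shPPP2R2A-1 and shPPP2R2A-2, all overlapping, with 95% intervals of -0.67 to 0.50 and -0.86 to 0.31 for the log2 fold changes.

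TGFBR2, the ligand-binding type II receptor, varied as much within groups as between the groups of a line. In A549 it was at 277, 173 and 438 CPM in shcon, 252, 180 and 133 CPM under shPPP2R2A-1, and 210, 204 and 337 CPM under shPPP2R2A-2. All 3 groups overlapped, and the log2 fold changes were -0.66 ± 0.33 (SE, adjusted p = 0.204, edgeR) and -0.23 ± 0.33 (0.654). In H1299 the means were 63.9 ± 17.5, 76.2 ± 10.2 and 96.0 ± 28.9 CPM (SD, n = 3) in shcon, shPPP2R2A-1 and shPPP2R2A-2, again overlapping, with log2 fold changes of 0.20 ± 0.26 (adjusted p = 0.705) and 0.53 ± 0.26 (0.311).

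SMAD3, the receptor-regulated SMAD that carries TGF-beta signals to DNA, was at 301, 151 and 208 CPM in A549 shcon, 383, 357 and 362 CPM under shPPP2R2A-1, and 279, 264 and 313 CPM under shPPP2R2A-2. The shPPP2R2A-1 libraries were close to one another and above the other 6. The log2 fold change of 0.74 ± 0.22 (SE) had an adjusted p (edgeR) of 0.0490, and the call was lost when any 1 of the 9 A549 libraries other than shcon replicate 1 was left out (0.0532 to 0.151, the latter without shcon replicate 3) and with RLE scaling (0.0536). With shPPP2R2A-2 it was 0.39 ± 0.22 (0.239), which passed without shcon replicate 1 (0.0459). In H1299 the 3 means were 79.2 ± 22.2, 79.4 ± 19.9 and 75.8 ± 12.8 CPM (SD, n = 3) for shcon, shPPP2R2A-1 and shPPP2R2A-2, with overlap throughout and 95% intervals of -0.60 to 0.51 and -0.68 to 0.43 for the log2 fold changes.

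SMAD7, the inhibitory SMAD that blocks and degrades the type I receptor, was the only member called with both hairpins in A549. Its shcon libraries were at 20.9, 12.1 and 12.5 CPM, the shPPP2R2A-1 libraries at 25.5, 25.7 and 40.6 CPM, and the shPPP2R2A-2 libraries at 31.5, 48.0 and 33.1 CPM. Both KD groups were above shcon without overlap and overlapped with each other. With shPPP2R2A-2 the log2 fold change was 1.32 ± 0.28 (SE, adjusted p = 0.00891, edgeR), and the call held when any 1 library was left out (0.00280 to 0.0475). It was 1.45 (0.0199) without A549 shPPP2R2A-2 replicate 1, the library with CDKN2A reads. With shPPP2R2A-1 it was 1.01 ± 0.28 (0.0360), lost without A549 shcon replicate 2 (0.0682), A549 shcon replicate 3 (0.133), A549 shPPP2R2A-1 replicate 2 (0.0515) or A549 shPPP2R2A-1 replicate 3 (0.111). In H1299 the libraries were at 2.93, 6.65 and 6.79 CPM in shcon, 14.0, 9.67 and 12.7 CPM under shPPP2R2A-1 and 5.30, 7.36 and 6.99 CPM under shPPP2R2A-2. All shPPP2R2A-1 libraries were above the other 6. The log2 fold change there was 1.10 ± 0.31 with an adjusted p of 0.0867 in edgeR and 0.00875 in DESeq2, and with shPPP2R2A-2 it was 0.20 ± 0.31 (0.801).

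SKIL, which encodes the SMAD co-repressor SnoN, had no call against shcon. Its A549 libraries were at 65.6, 40.8 and 64.9 CPM in shcon, 51.8, 35.8 and 23.8 CPM under shPPP2R2A-1, and 45.7, 61.2 and 36.7 CPM under shPPP2R2A-2, with overlap between all groups. The log2 fold changes were -0.63 ± 0.29 (SE, adjusted p = 0.170, edgeR) and -0.24 ± 0.29 (0.589). In H1299 shcon ranged from 13.0 to 39.4 CPM, shPPP2R2A-1 from 32.4 to 35.7 CPM and shPPP2R2A-2 from 11.5 to 25.2 CPM, and the KD groups did not overlap with each other although both overlapped with shcon. The log2 fold changes against shcon were 0.24 ± 0.37 (0.761) and -0.73 ± 0.37 (0.333).

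TGFBI rose with shPPP2R2A-1 in both lines, from control levels that differed widely. In A549 it was at 1022, 426 and 543 CPM in shcon, 1755, 1532 and 2188 CPM under shPPP2R2A-1, and 1131, 751 and 658 CPM under shPPP2R2A-2. The shPPP2R2A-1 libraries were above all others, and shPPP2R2A-2 overlapped with shcon. In H1299 it was at 5.32, 14.7 and 10.0 CPM in shcon, 21.7, 30.8 and 31.1 CPM under shPPP2R2A-1, and 11.4, 15.1 and 11.4 CPM under shPPP2R2A-2, in the same arrangement. With shPPP2R2A-1 the log2 fold change was 1.46 ± 0.32 (SE, adjusted p = 0.0151, edgeR) in A549 and 1.42 ± 0.33 (0.0465) in H1299. The A549 call was lost without A549 shcon replicate 3 (0.0630). The H1299 call was lost on leaving out any 1 of 7 of its 9 libraries (0.0537 to 0.171), all but shcon replicate 2 and shPPP2R2A-2 replicate 3. With shPPP2R2A-2 it was 0.36 ± 0.32 (0.446) and 0.27 ± 0.32 (0.724). In A549 it was 0.12 (0.858) without shPPP2R2A-2 replicate 1, the highest library of its group.

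**Figure D3:**
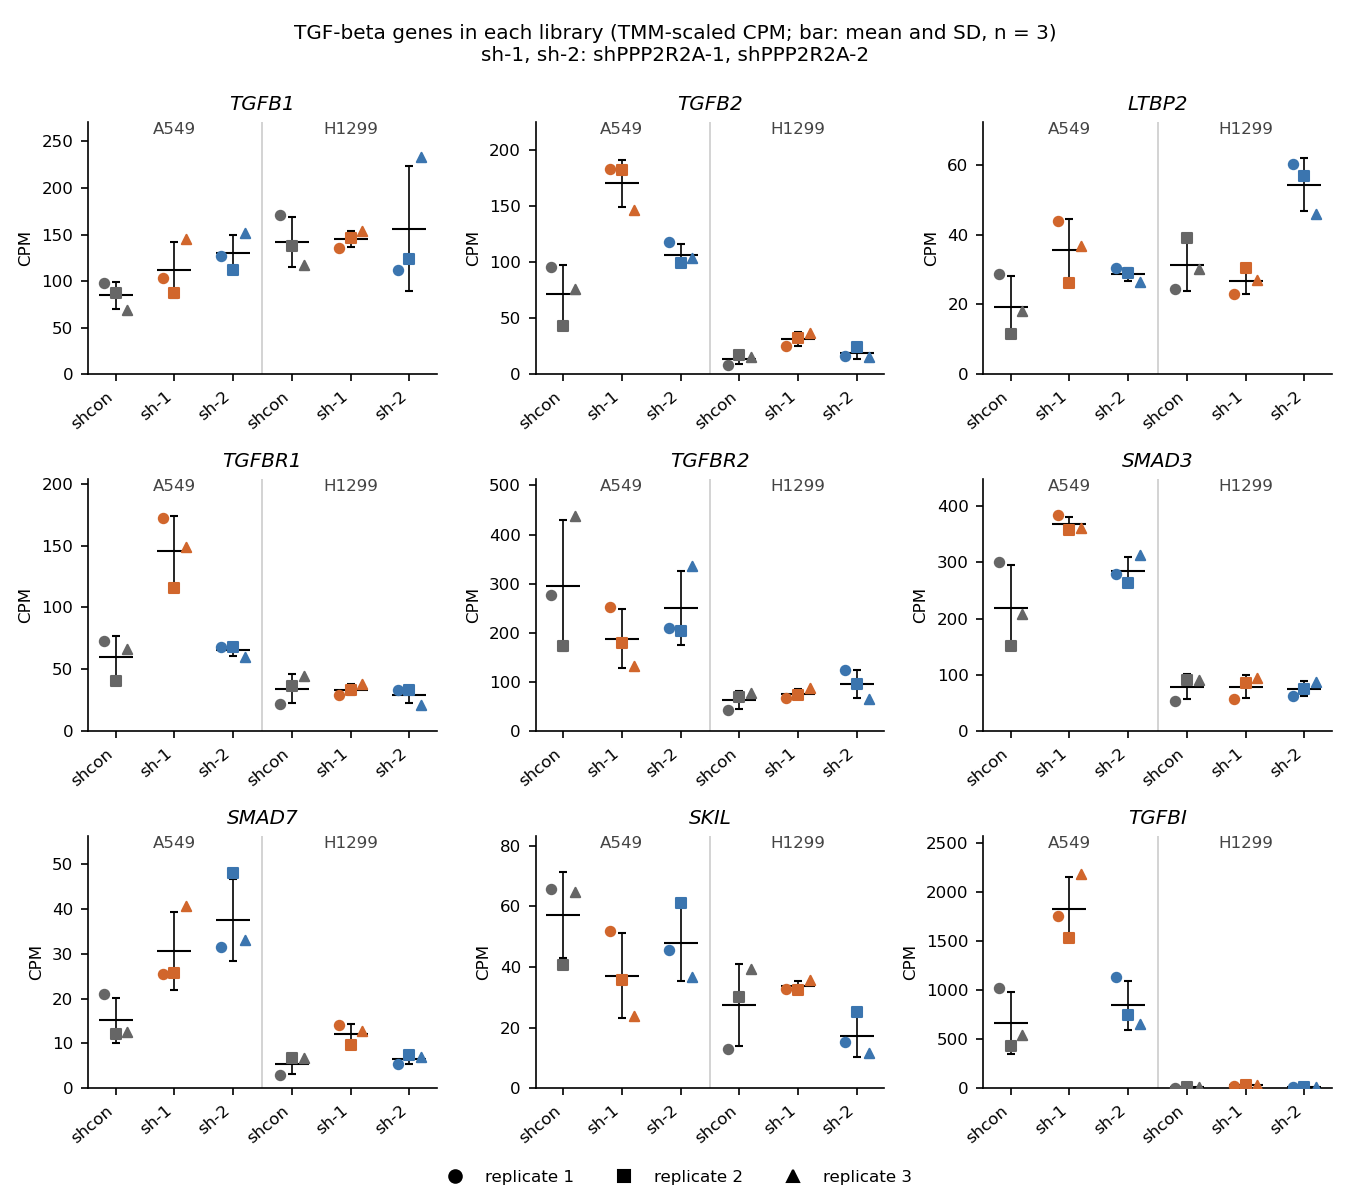
CPM of each gene in each library by group, 1 panel per gene, with the replicate number given by the marker and bars for the mean and SD (n = 3). In A549 the shPPP2R2A-1 libraries of TGFB2, TGFBR1, SMAD3 and TGFBI lie above all other libraries, and in H1299 the shPPP2R2A-2 libraries of LTBP2 do so within their line. The share of all genes with groups separated in this way is not given, so this describes the points only.

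The hairpins were then compared with each other, to see which members moved with 1 hairpin more than with the other. In A549, 2 of 9 genes were called, both lower with shPPP2R2A-2 than with shPPP2R2A-1, and 0 higher, where 17.5% of all genes were called in either direction. The log2 difference was -1.14 ± 0.23 (SE, adjusted p = 0.00624, edgeR) for TGFBR1 and -1.09 ± 0.32 (0.0370) for TGFBI. The former held when any 1 library was left out (0.00130 to 0.0294), including shPPP2R2A-2 replicate 1 (0.0210). The TGFBI call held without that library (0.0336) and was lost without any 1 of shPPP2R2A-1 replicates 1, 2 and 3 and shPPP2R2A-2 replicates 2 and 3 (0.0645 to 0.141). No member was higher with shPPP2R2A-2 at an unadjusted p under 0.05 in edgeR (0) or at the adjusted threshold of DESeq2 (0). TGFB2 was lower by the same sign (-0.66 ± 0.25, 0.0893) and was called without A549 shcon replicate 2 (0.0143), a library of neither group compared, which enters the fit of the line.

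In H1299, 2 of 9 were called, where 16.2% of all genes were. LTBP2 was higher with shPPP2R2A-2 than with shPPP2R2A-1 by 1.01 ± 0.21 on the log2 scale (SE, adjusted p = 0.0108, edgeR), lost without shPPP2R2A-1 replicate 1 (0.0559) or shPPP2R2A-1 replicate 3 (0.0522). TGFBI was lower, at -1.15 ± 0.32 (0.0354), and this call was lost without any 1 of the 6 KD libraries (0.0543 to 0.116). Without H1299 shcon replicate 1, TGFB2 (0.0347), SMAD7 (0.0175) and SKIL (0.0283) were called lower as well, from 0.0891, 0.0719 and 0.103 with it. PPP2R2A itself was 2.11-fold higher in H1299 shPPP2R2A-2 cells than in H1299 shPPP2R2A-1 cells (adjusted p = 0.0073) and differed 1.42-fold in A549 (adjusted p = 0.181). The part of this difference in KD in the members' values was not tested.

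Whether the lines responded differently was tested as the difference between their log2 fold changes in the fit of all 18 libraries. For shPPP2R2A-1, 0 of 9 genes were called in either direction by edgeR, where 1.09% of all genes were, with 3 higher and 0 lower at an unadjusted p under 0.05 and 1 called by DESeq2. For shPPP2R2A-2, 0 of 9 were called, where 0.643% of all genes were, with 1 higher and 0 lower at an unadjusted p under 0.05 and 0 called by DESeq2. The most separated member was TGFBR1 with shPPP2R2A-1, 1.31 ± 0.37 (SE) more in A549 than in H1299 with an adjusted p of 0.0949 in edgeR, 0.0213 in DESeq2 and 0.0452 without H1299 shcon replicate 1. LTBP2 followed at 1.09 ± 0.38 (0.186), and was called without A549 shcon replicate 1 (0.0392). For TGFB2 and TGFBI the differences were 0.05 and -0.02, with 95% intervals of -0.77 to 0.87 and -0.99 to 0.95. With shPPP2R2A-2 the members ran from -0.83 (TGFBR2, adjusted p = 0.439) to 1.05 (SMAD7, 0.297).

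TGFB2 and TGFBI were also the most alike of the members across libraries. With each line centred on its own mean, their log2 CPM had a Pearson r of 0.93 over the 18 libraries, 0.89 within the 9 A549 libraries and 0.98 within the 9 H1299 libraries. Among 11708 genes compared, each was the gene most like the other, followed by PLOD2 (0.92) and ZNF827 (0.89) for TGFB2 and by NAPB (0.91) and TNFRSF21 (0.89) for TGFBI. The points share hairpin groups and library scaling, so r describes these libraries and no p is given. No other member had another member among its 3 most alike genes. The closest were TMEM115 for TGFB1 (r = 0.90), XDH for LTBP2 (0.90), PRKCE for TGFBR1 (0.95), WDR44 for TGFBR2 (0.93), SOCS2 for SMAD3 (0.92), SLC16A9 for SMAD7 (0.87) and PAWR for SKIL (0.91). For some pairs of members r differed in size or sign between the lines, and this difference was not tested. TGFB2 and SMAD3 had r = 0.96 in A549 and 0.44 in H1299, TGFB2 and LTBP2 0.88 and -0.06, and TGFB2 and SKIL -0.28 and 0.65.

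**Figure D4:**
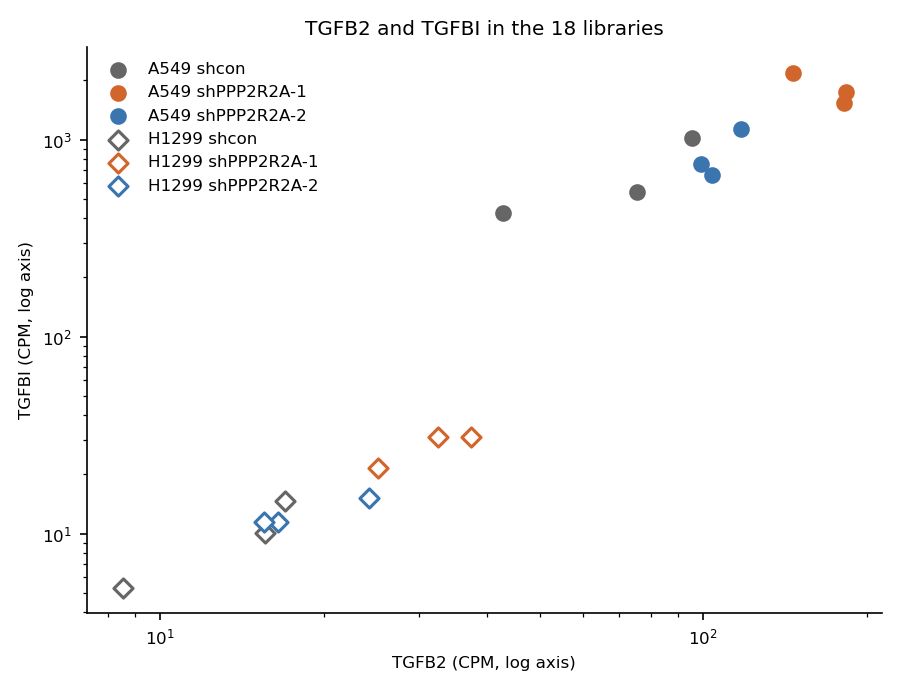
TGFBI against TGFB2 in CPM (both log axes), 1 point per library, filled circles for A549 and open diamonds for H1299, colored by hairpin. Within each line the shPPP2R2A-1 libraries are at the upper right, and r is 0.89 in A549 and 0.98 in H1299.

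The other genes of the pathway were taken from a list of 76, of which 67 were tested in A549 and 62 in H1299. In A549 shPPP2R2A-1 cells 17 of them rose and 5 fell, and in A549 shPPP2R2A-2 cells 26 rose and 4 fell, against the shares of all genes given above (7.34% and 6.34%, then 10.6% and 9.94%). In H1299, 3 rose with shPPP2R2A-1 and 1 with shPPP2R2A-2, where 0.808% and 1.37% of all genes rose. By edgeR 0 were lower in both, where 1.93% and 1.72% of all genes fell, and 1 and 4 were lower at an unadjusted p under 0.05 and DESeq2 called 1 and 2. The median log2 fold change of the list was 0.06 and 0.52 in A549 and 0.18 and 0.22 in H1299. The A549 counts fell to 10 higher and 3 lower (shPPP2R2A-1) and to 14 higher (shPPP2R2A-2) without A549 shcon replicate 3. With shPPP2R2A-1, 3 were lower without A549 shPPP2R2A-1 replicate 2. With shPPP2R2A-2, 16 were higher and 0 lower without A549 shPPP2R2A-2 replicate 2, and 7 were lower without A549 shcon replicate 2. Without A549 shPPP2R2A-2 replicate 1 they were 19 higher and 3 lower with that hairpin.

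The higher calls lay mostly among the 20 target genes, of which 19 were tested. In A549, 12 of them rose in shPPP2R2A-1 cells and 14 in shPPP2R2A-2 cells, where 7.34% and 10.6% of all genes rose. By edgeR 0 fell, where 6.34% and 9.94% of all genes fell. At an unadjusted p under 0.05 edgeR gave 1 and 0 lower, and DESeq2 called 0 and 0. Several of these targets had already been seen to rise in these libraries when the list was made, so the count is not independent evidence of its direction. ACTA2, smooth muscle actin, was at 16.1 ± 3.08 CPM (SD, n = 3) in A549 shcon, 43.9 ± 6.80 CPM under shPPP2R2A-1 and 116 ± 10.9 CPM under shPPP2R2A-2, a log2 fold change of 1.45 ± 0.19 (SE, adjusted p = 0.00201, edgeR) and 2.87 ± 0.20 (5.73e-05). CDKN1A, the cell cycle inhibitor p21, was at 133 ± 22.4, 467 ± 103 and 913 ± 132 CPM, with log2 fold changes of 1.81 ± 0.22 (0.00144) and 2.79 ± 0.23 (7.76e-05). In H1299 neither was called with either hairpin. The H1299 calls, named after their values were seen, were the targets BHLHE40 and CTGF and the SMAD anchor ZFYVE9 with shPPP2R2A-1, and the target COL1A1 with shPPP2R2A-2. The 3 became 0 without any 1 of H1299 shcon replicates 2 and 3, H1299 shPPP2R2A-1 replicates 1 and 3 and H1299 shPPP2R2A-2 replicate 2, 1 without H1299 shPPP2R2A-1 replicate 2 and 8 without H1299 shPPP2R2A-2 replicate 3. The single call became 7 without H1299 shPPP2R2A-2 replicate 3 and was 0 without any 1 of H1299 shcon replicates 2 and 3, H1299 shPPP2R2A-1 replicates 2 and 3 and H1299 shPPP2R2A-2 replicates 1 and 2.

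Among ligands and their antagonists, INHBB, a subunit of activin B, fell in A549 from 60.6 ± 7.33 CPM to 15.7 ± 2.83 CPM under shPPP2R2A-1 (log2 fold change -1.95 ± 0.21, adjusted p = 0.00088, edgeR) and to 31.9 ± 6.56 CPM under shPPP2R2A-2 (-0.91 ± 0.21, 0.0106), and had 0 reads in every H1299 library. The call with shPPP2R2A-2 was lost without A549 shPPP2R2A-2 replicate 2 (0.0580). BMP2, a bone morphogenetic protein, rose with shPPP2R2A-2 (2.37 ± 0.36, adjusted p = 0.00172) and was at 1.10 ± 0.35 (0.0577) with shPPP2R2A-1, which passed without A549 shPPP2R2A-2 replicate 1 (0.0408). FST, follistatin, an activin antagonist, rose with both (1.52 ± 0.39, 0.0257, and 1.52 ± 0.39, 0.0183), both calls being lost without A549 shcon replicate 3 (0.0991 and 0.0763). The former was also lost without A549 shcon replicate 1 (0.0523) or A549 shPPP2R2A-1 replicate 3 (0.0761), and the latter without A549 shPPP2R2A-2 replicate 2 (0.0793). FSTL3, a relative of follistatin, rose with shPPP2R2A-1 (1.08 ± 0.33, 0.0491), a call kept only without A549 shcon replicate 1 or A549 shPPP2R2A-1 replicate 2 (0.0505 to 0.169 without any 1 of the other 7 libraries), and was at 0.83 ± 0.33 (0.0922) with shPPP2R2A-2, called without A549 shPPP2R2A-1 replicate 3 (0.0178). Of the genes for latency and activation, ITGB6, the integrin subunit that with alpha-v frees latent TGF-beta, was at 2.05 ± 1.32, 6.34 ± 1.60 and 17.3 ± 0.690 CPM in shcon, shPPP2R2A-1 and shPPP2R2A-2, with log2 fold changes of 1.63 ± 0.39 (0.0189) and 3.09 ± 0.40 (0.000869). FBN1, fibrillin-1, the microfibril protein to which latent complexes attach, was at 17.7 ± 7.51, 55.8 ± 16.5 and 83.6 ± 18 CPM, with log2 fold changes of 1.65 ± 0.33 (0.00998) and 2.25 ± 0.34 (0.00163). The ITGB6 call with shPPP2R2A-1 was lost without A549 shcon replicate 3 (0.0783).

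This list leaves out the 9 members. Of its 9 receptors and 6 SMADs and partners tested in A549, edgeR called 0 higher with either hairpin. Of all genes, 7.34% and 10.6% rose with shPPP2R2A-1 and shPPP2R2A-2, so 0 among so few genes does not set them apart. At an unadjusted p under 0.05 edgeR gave 1 such receptor and 0 SMADs higher with each hairpin, and DESeq2 called 0 receptors with shPPP2R2A-1, 1 with shPPP2R2A-2 and 0 SMADs. With shPPP2R2A-1, edgeR called 2 of the 9 receptors and 0 of the 6 SMADs and partners lower, where 6.34% of all genes fell. With shPPP2R2A-2 it called 1 and 2 lower, where 9.94% fell. ACVRL1, a type I receptor known from endothelium, had 23 to 106 reads per A549 shcon library and 1 to 3 per shPPP2R2A-1 library, a ratio of 0.0333 with a 95% counting interval of 0.0121 to 0.0738, against 66 to 102 reads with shPPP2R2A-2. That interval pools the reads of each group and leaves out the spread between libraries, so it understates the uncertainty. ACVRL1 was called lower with shPPP2R2A-1 (adjusted p = 0.0021, edgeR). The 5 endothelial markers of the list summed to 1.53 to 4.16 CPM in shcon, 0.354 to 0.806 CPM under shPPP2R2A-1 and 0.855 to 1.32 CPM under shPPP2R2A-2. Most of that sum was CDH5, at means of 2.67, 0.345 and 0.836 CPM. VWF, KDR and TEK were at means of 0.00716, 0.0357 and 0.0143 CPM in shcon and were not lower under shPPP2R2A-1 (0.0472, 0.0613 and 0.105 CPM), and ROBO4 was at 0 in both groups. Their part in the result was not tested. BMPR1A, a BMP type I receptor, fell with shPPP2R2A-2 (-1.18 ± 0.27, adjusted p = 0.0117), as did SMAD1 (-1.37 ± 0.33, 0.0143), which carries BMP signals, and SMAD2 (-0.85 ± 0.20, 0.0127), the partner of SMAD3. With shPPP2R2A-1 they were at -0.29, -0.59 and -0.52 and were not called (0.497, 0.241 and 0.102). The 3 calls were lost without A549 shPPP2R2A-2 replicate 2 (0.0554, 0.0719 and 0.0624). That of SMAD1 was also lost without A549 shcon replicate 3 (0.0591) or A549 shPPP2R2A-2 replicate 1 (0.0595). Among inhibitors, BAMBI, a decoy receptor, was the only listed gene called with both A549 hairpins in opposite directions, at 35.8 ± 7.65 CPM in shcon, 20.6 ± 3.57 CPM under shPPP2R2A-1 and 68.1 ± 2.81 CPM under shPPP2R2A-2. Its log2 fold changes were -0.80 ± 0.20 (0.0210) and 0.94 ± 0.20 (0.00750), and the former was lost without A549 shcon replicate 3 (0.0920), A549 shPPP2R2A-1 replicate 2 (0.0593) or A549 shPPP2R2A-1 replicate 3 (0.0582). PMEPA1, which sequesters receptor-regulated SMADs, rose with shPPP2R2A-2 (1.49 ± 0.31, 0.00710), as did the co-repressor TGIF2 (1.60 ± 0.29, 0.00358), and with shPPP2R2A-1 they were at 0.61 (0.195) and 0.69 (0.121). PMEPA1 with shPPP2R2A-1 passed without A549 shcon replicate 1 (0.0182).

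**Figure D5:**
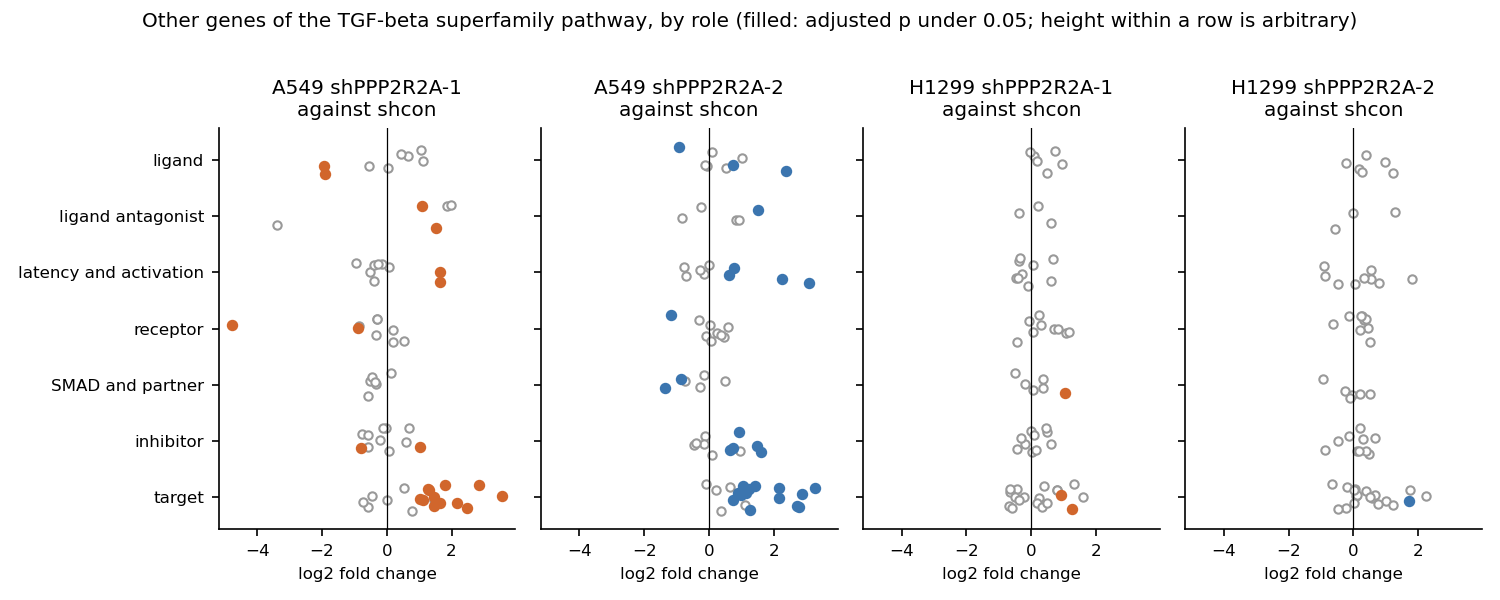
Log2 fold change (edgeR) of the other pathway genes against shcon by role, in 1 panel per line and hairpin, with filled points for calls and arbitrary height within a row. In A549 the target row holds 12 and 14 filled points, all to the right of 0, where 7.34% and 10.6% of all genes rose. In H1299 it holds 2 and 1, where 0.808% and 1.37% rose. Several of the rises had been seen when the list was made. The edgeR test of the line difference called 2 of 20 targets higher in A549 and 1 lower with shPPP2R2A-1 (1.09% of all genes in either direction). With shPPP2R2A-2 it called 1 higher and 0 lower (0.643%).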

How the data were processed

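Poly(A)-selected, strand-specific RNA-Seq libraries (TruSeq stranded mRNA, per the labels) were made from 18 cell samples. The submitters' processing notes list, with no order, STAR 2.7.3a and Bowtie2 for alignment, HTSeq 0.11.2 and Cufflinks 2.2.1 for quantification, cutadapt 2.5, FastQC 0.11.8 and also DESeq2, and the build GRCh37 (hg19). The authors deposited raw counts per gene for 57773 genes, with 55773 distinct symbols and 0 rows naming no gene. The authors also deposited a normalized signal per library, the counts divided by a size factor, which was used only to check that scale, and fold changes and p-values of their own comparisons, which were not used.

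From the counts, edgeR 4.0.16 (R 4.3.3, limma 3.58.1) was run per line after filterByExpr (A549 17229 genes, H1299 15972), with TMM, robust dispersion, the quasi-likelihood test and Benjamini-Hochberg adjustment at 0.05. Log2 CPM for the correlations used a prior count of 2, while fold changes kept edgeR's default. The 95% intervals used t quantiles with the fit's degrees of freedom. Comparisons between lines used all 18 libraries (18827 genes). CPM were scaled over all 18 libraries, with 3 libraries per group. Totals of 35743287 to 69298905 counts give small counting error for the members, and replicates (r 0.955 to 0.989) differed by more than sampling noise, so none was counted as a duplicate. The labels number the replicates without saying what a number shares. A rule read from the data alone asked that every same-numbered pair correlate at over 0.1 in its deviations from the group means. H1299 shcon with shPPP2R2A-1 (0.14 to 0.24) and H1299 shPPP2R2A-1 with shPPP2R2A-2 (0.20 to 0.39) passed, and no other pair of groups within a line did. Same-numbered libraries of H1299 shcon and shPPP2R2A-2 correlated at -0.16, 0.40 and -0.43. Differently numbered H1299 libraries reached 0.44, so these values do not settle whether the numbers pair the samples.

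Tested on simulated data, the fit recovered 60.0% and 61.0% of genes changed by a log2 of 1 and 99.0% and 96.0% of those changed by a log2 of 2 (shPPP2R2A-1 against shcon in A549 and H1299, 17025 and 15879 genes). The simulated counts had the same dispersion for every gene and no shift shared by the genes of a library. These shares may therefore not hold for the real libraries. The members and lists were chosen with earlier results of these data known. Beyond the 9 members, the 2 pathway genes per role with the smallest adjusted p over the 4 comparisons with shcon were named, and any gene called in opposite directions with both hairpins in a line. Alternatives were DESeq2 1.42.0, RLE scaling, no filter, a replicate block, 1 fit of all libraries and leaving out each library. Promoter windows of 250 bases came from RefSeq (GRCh38.p14). One further check of the line labels is not reported here.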

Additional observations from a re-analysis of the deposited data

Results flagged for a closer look

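Of the 71 pathway genes tested, 4 responded differently in the lines by edgeR's test of the difference between the log2 fold changes of A549 and H1299, with p adjusted over all 18827 genes. With shPPP2R2A-1, 2 were higher and 2 lower, where 1.09% of all genes were called in either direction. With shPPP2R2A-2, 1 was higher and 0 lower, where 0.643% were. Values of these genes with 1 library left out are not given, and all calls then ranged from 31 to 278 and from 7 to 386. IL11, a cytokine induced by TGF-beta, differed by 4.17 ± 0.95 (SE, adjusted p = 0.0410) with shPPP2R2A-1, at 3.65 to 15 CPM in A549 shcon and 42.4 to 157 CPM in A549 shPPP2R2A-1 cells against 0.696 to 5.71 and 1.06 to 3.34 CPM in H1299. ACTA2 differed by 1.84 ± 0.35 (0.0177) with shPPP2R2A-1 and by 1.79 ± 0.34 (0.0210) with shPPP2R2A-2, and its H1299 libraries were at 2.54 to 11.4 CPM over all groups. BHLHE40, a transcriptional repressor, differed by -1.57 ± 0.31 (0.0206) with shPPP2R2A-1, at 251 to 413 and 168 to 265 CPM in A549 shcon and shPPP2R2A-1 cells and 24.7 to 34.5 and 55.1 to 66.1 CPM in H1299. BMP6, a bone morphogenetic protein, differed by -2.90 ± 0.50 (0.0100) with shPPP2R2A-1, at 5.03 to 13.1 and 2.04 to 3.32 CPM in A549 and 12.1 to 21.6 and 25.5 to 41.8 CPM in H1299. IL11, BHLHE40 and BMP6 were named after their values were seen. None of the 9 members was among the genes with such a difference by edgeR (0 with each hairpin, against 3 and 1 at an unadjusted p under 0.05 and 1 and 0 called by DESeq2).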

How the results depend on the processing

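DESeq2 and the fit with no filter on low counts gave more calls, and without the filter the members' median degrees of freedom were 190986 (A549), 178368 (H1299) and 417948 (all libraries) against 11.7, 10.8 and 18.2. All genes called against shcon numbered 3680 (DESeq2) and 3604 (no filter) from 2357 for A549 shPPP2R2A-1, 1461 and 1381 from 437 for H1299 shPPP2R2A-1, and 1423 and 1169 from 493 for H1299 shPPP2R2A-2. For the line difference in response they numbered 749 and 904 from 206 with shPPP2R2A-1, and 667 and 811 from 121 with shPPP2R2A-2. Members called higher were 2 and 3 (A549 shPPP2R2A-2), 3 and 3 (H1299 shPPP2R2A-1), 1 and 1 (H1299 shPPP2R2A-2) and 1 and 1 (shPPP2R2A-1 line difference), and 4 and 4 were lower in H1299 shPPP2R2A-2 against shPPP2R2A-1. With no filter, 2 members were lower with A549 shPPP2R2A-1 (TGFBR2 and SKIL) and 1 with H1299 shPPP2R2A-2 (SKIL). Pathway genes higher were 8 and 10 (H1299 shPPP2R2A-1) and 7 and 8 (H1299 shPPP2R2A-2), those lower were 1 and 1 and then 2 and 3, and 9 were lower in A549 shPPP2R2A-1 with no filter. RLE scaling gave 1 lower pathway gene with H1299 shPPP2R2A-2, and under it and DESeq2 the TGFBI line difference with shPPP2R2A-1 became 0.028 and 0.028 from -0.02. In 1 fit of all 18 libraries, H1299 shPPP2R2A-1 had 2 members higher and TGFB1 and SMAD3 turned from -0.03 and -0.05 to 0.029 and 0.0044, and H1299 shPPP2R2A-2 had 4 pathway genes higher. The cause of these changes was not tested.

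Within a line, same-numbered libraries passed the rule for pairing in 2 H1299 comparisons (shcon with shPPP2R2A-1, and the hairpins with each other) and not in the other 4. Over all groups, same-numbered libraries correlated at -0.34 to 0.32 in A549 and -0.43 to 0.40 in H1299. Differently numbered libraries correlated at -0.41 to 0.33 and -0.48 to 0.44, so whether the numbers pair the samples is not settled. With the number as a replicate block, H1299 shPPP2R2A-1 had 2 members higher, H1299 shPPP2R2A-2 had 4 pathway genes higher, and the shPPP2R2A-2 line difference called 79 genes. Of the log2 fold changes, 2 then gained and 5 lost the call, and in the 2 H1299 comparisons that passed the rule no call other than that of TGFB2 changed.

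Leaving out 1 library at a time, all genes called against shcon ranged from 918 to 2731 and from 1527 to 4483 in A549 (shPPP2R2A-1 and shPPP2R2A-2) and from 63 to 1095 and from 87 to 1217 in H1299. They ranged from 1449 to 3719 (A549) and 985 to 3053 (H1299) between hairpins, and from 31 to 278 and 7 to 386 for the line differences. Members higher ranged from 2 to 6 and 1 to 4 in A549, 0 to 2 and 0 to 1 in H1299, 0 to 1 for H1299 shPPP2R2A-2 against shPPP2R2A-1 and 0 to 1 for the shPPP2R2A-1 line difference. Members lower ranged from 1 to 3 (A549) and 0 to 4 (H1299) between hairpins and from 0 to 2 between shcon cells. Pathway genes ranged from 10 to 20 higher and 3 to 6 lower, then 14 to 28 higher and 0 to 7 lower in A549, and from 0 to 8 higher, then 0 to 7 higher and 0 to 2 lower in H1299. The members whose log2 fold change turned were TGFBR1 (-0.049 to 0.30) and TGFBR2 (-0.47 to 0.16) with A549 shPPP2R2A-2, and TGFB1 (-0.13 to 0.15), TGFBR1 (-0.30 to 0.17), SMAD3 (-0.24 to 0.15) and SKIL (-0.080 to 0.60) with H1299 shPPP2R2A-1. With H1299 shPPP2R2A-2 they were TGFB1 (-0.33 to 0.25), SMAD3 (-0.33 to 0.0047), SMAD7 (-0.091 to 0.39) and TGFBI (-0.019 to 0.67), and against shPPP2R2A-1 TGFB1 (-0.32 to 0.27) and SMAD3 (-0.28 to 0.065). The line difference with shPPP2R2A-1 ranged from -0.22 to 0.36 for TGFB2 and from -0.40 to 0.48 for TGFBI. None of these reversals touched a call.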
